A study of Brassica rapa subsp. pekinensis with 2 samples.

Results

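The transcripts described here were assembled RNAs of Chinese cabbage (Brassica rapa subsp. pekinensis) with the class code o. In the comparison of assembled with annotated transcripts this code marks overlap with an annotated exon on the same strand, without a shared splice junction. All class o transcripts of at least 200 nt were taken from the table of linear transcripts, apart from 4 that lay in a 500-kb window of chromosome A06 (15000001 to 15500000), and this left 856 of 50834 transcripts. Each was set beside the transcript of the same gene name that matched the annotation exactly (class code =), here called its partner. In some 2-exon transcripts the partner lay further from both ends of the span than the spliced length. Their exons cannot touch the partner, and such a pair shares only a gene name. A partner was listed for 793 of the 856, in 694 genes, and the other 63 transcripts, in 52 genes, had none. The choice used annotation and length alone and no expression value.

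Total RNA depleted of ribosomal RNA was sequenced from 2 libraries of the doubled-haploid line FT. The ‘Ant’ library was made from anthers at mixed stages of development, and the ‘Mix’ library from roots, stems and leaves of whole seedlings with 4 true leaves. For both, the labels give vernalization at 4 °C for 20 days and no other treatment or allele. The paper's methods state this vernalization for the ‘Ant’ plants and name none for the ‘Mix’ seedlings, so the libraries may differ in it. Each group was 1 library, so every difference below compares these 2 libraries, has no replicate check and carries no test. The ‘Mix’ library pooled several organs, so organs within it cannot be told apart, and in either library fewer cells of a type and less RNA per cell cannot be told apart.

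A plant gene can give rise to several RNAs through other start sites, splice sites and polyadenylation sites. Introns lie in the untranslated leader and trailer as well as in the coding part, and a leader intron is a known feature of plant polyubiquitin genes. A further kind of splicing, described in Arabidopsis, removes an internal piece of a protein-coding exon, and such a piece is called an exitron. Where the annotation holds only the coding part of a gene without introns, each of these RNAs overlaps the annotated exon without sharing a junction. In this annotation the lengths of all 34213 class = transcripts were multiples of 3, so the partners were coding lengths without untranslated regions.

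The linear table held 216371346 estimated counts in ‘Ant’ and 190816341 in ‘Mix’. The excluded A06 window took 2.07% of the counts in ‘Ant’ and 56.2% in ‘Mix’. Levels are FPKM as deposited, and the totals behind them include this window. The 17562 transcripts that reached 1 FPKM in each library had a median log2 ratio of 0.54 toward ‘Ant’, which became -0.17 once the window was taken out of the totals. Log2 ratios below are log2 of (FPKM + 1) in ‘Ant’ over (FPKM + 1) in ‘Mix’, which understates the difference for low transcripts, and they are to be read against the shift of 0.54. In sum the libraries carried their tissue markers: 72 annotated genes of green tissue summed to 312 FPKM in ‘Ant’ and 27776 in ‘Mix’, and 253 genes of anther and pollen summed to 47682 and 1148. By gene, of 68 green-tissue genes with at least 1 FPKM in either library, 0 had a log2 ratio above 1 and 65 below -1. Of 167 such anther and pollen genes, 105 were above 1 and 40 below -1, so that list went both ways.

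Class o transcripts were spliced RNAs, mostly of few exons, whose span usually reached past that of the coding model. All had at least 2 exons: 649 (75.8%) had 2 exons, 152 had 3, 32 had 4, 13 had 5 and 10 had 6 or more. The partner, in contrast, had 1 exon in 590 of 793 pairs. The median length was 1151 nt for the paired class o transcripts and 903 nt for their partners, and the median genomic span was 1753 nt against 1010 nt. The span covered the whole partner in 682 pairs (86.0%). It went past the 5′ end of the partner in 583 pairs, by a median of 533 nt, and past the 3′ end in 394 pairs, by a median of 706 nt.

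By the position of the ends, the largest group reached past the 5′ end only (293 pairs). A further 235 reached past both ends and 124 past the 3′ end only, 55 were shifted toward the 5′ side, 35 toward the 3′ side, 30 had the same 2 ends as the partner and 21 lay inside it. The transcripts were spread over all 10 chromosomes, with 54 on A08 and 126 on A09. In 738 pairs the span held no other annotated gene of the same strand, in 43 it held 1 and in 12 it held 2 or more.

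**Figure D1:**
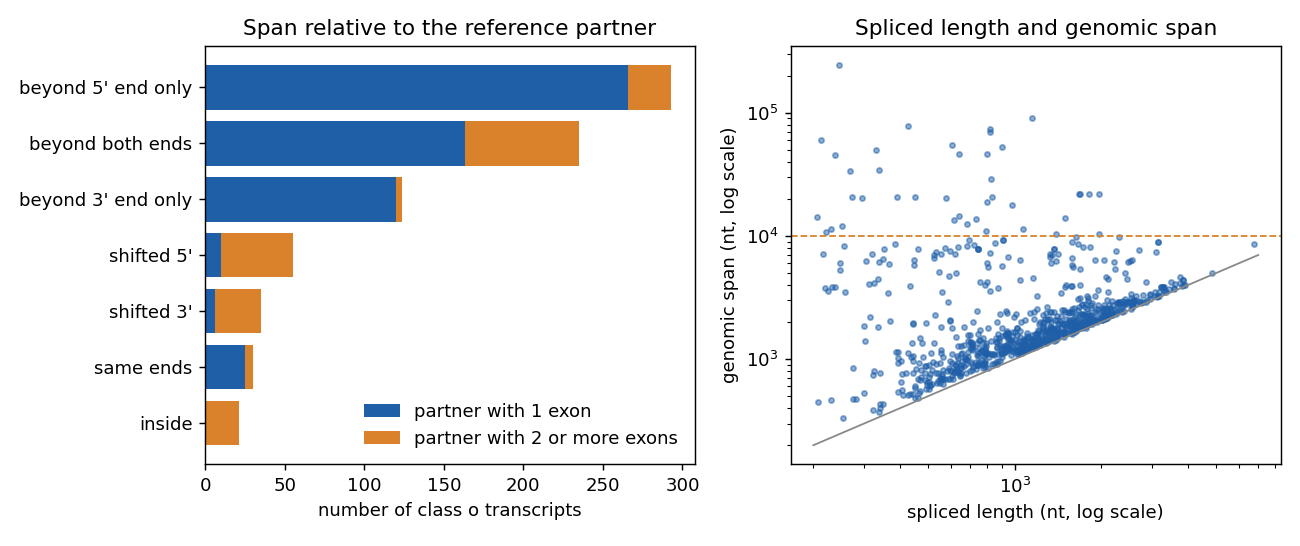
Left, number of class o transcripts (bars) by how their span lies relative to the annotated partner, with partners of 1 exon and of 2 or more exons in separate colours. Right, spliced length against genomic span in nt on log axes for all 856 transcripts (points), with the line of equal length and span and a dashed line at 10 kb, above which 40 transcripts lie.

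Most spans were close to the spliced length, but 40 transcripts spanned more than 10 kb, and 31 of these were under 1000 nt long. The widest was MSTRG.6827.1, which was 246 nt long over a span of 244063 nt that held 24 other annotated genes of its strand. Its level was 2.17 FPKM in ‘Ant’ and 7.58 FPKM in ‘Mix’. Exon positions are not listed, but a 2-exon transcript has its exons at the 2 ends of its span. Those of MSTRG.6827.1, which had 2, thus lay within 246 nt of its ends and not at genes further inside. For transcripts with 3 or more exons it is not known which of the enclosed genes the inner exons touch. The longest RNA was MSTRG.10493.1 at 6768 nt, over an A04 locus annotated as NADH dehydrogenase subunit 7, a respiratory protein encoded in the mitochondrial genome, so that reads of the organelle RNA cannot be told apart from it.

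Where a class o transcript had the same ends as its partner, the part removed was short. Of 461 class o transcripts with 2 exons over a partner of 1 exon, 22, from 20 genes, shared both ends, and the piece left out had a median of 80.5 nt (range 33 to 339 nt). Its length was a multiple of 3 in 18 of the 22 (81.8%). In the other 439 the gap had a median of 291 nt and was a multiple of 3 in 151 (34.4%). Whether these 22 are exitrons was not tested, and no genome sequence was used here to look at their splice sites.

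Among the genes with such a pair were regulators, signalling proteins and F-box proteins. AGL80, a MADS-box transcription factor that Arabidopsis needs in the central cell of the female gametophyte, had a version lacking 63 nt (MSTRG.15206.1) at 3.86 FPKM in ‘Ant’ and 0 in ‘Mix’, with the full-length partner at 1.54 and 0.038 FPKM. A version of a VQ motif-containing protein 31-like gene that lacked 93 nt (MSTRG.6271.2) was at 19.5 FPKM in ‘Ant’ and 0 in ‘Mix’, with the partner at 0.73 and 0.0077 FPKM. The shortened version was thus more abundant than the annotated form in ‘Ant’ in both. The reverse held for 3 F-box/kelch-repeat genes, which encode substrate adaptors of ubiquitin ligases: MSTRG.19020.1, lacking 69 nt, was at 9.13 FPKM in ‘Ant’ and 1.42 in ‘Mix’ beside a partner at 94.9 and 4.25 FPKM. In MSTRG.24126.1 and MSTRG.25747.1 the shortened version was at 1.26 and 1.28 FPKM in ‘Ant’ and 0 in ‘Mix’, with partners at 4.28 and 10.4 FPKM in ‘Ant’.

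To compare anthers with seedlings, levels were kept where the FPKM was at least 1 in either library, which held for 806 of the 856. The median FPKM over all 856 was 2.99 in ‘Ant’ and 0.93 in ‘Mix’. Of the 806, 317 reached 1 FPKM in both libraries, 396 in ‘Ant’ alone and 93 in ‘Mix’ alone. An FPKM of at least 10 was met by 184 in ‘Ant’ and 71 in ‘Mix’, and of at least 100 by 20 and 11. Only MSTRG.10493.1 was at 100 or more in both, with 196 FPKM in ‘Ant’ and 217 in ‘Mix’. At the low end 44 were listed at 0 in ‘Ant’ and 184 in ‘Mix’.

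More class o transcripts were higher in ‘Ant’ than in ‘Mix’, at a share near that of the whole table. A log2 ratio above 1 was found for 446 of 806 (55.3%), against 50.2% of all 36009 transcripts past the same filter, and a ratio below -1 for 110 (13.6%), against 16.8%. The median log2 ratio was 1.14, against 1.01 for all transcripts. Annotated class = transcripts gave 41% above 1 and 21.7% below -1. Assembled RNAs that share a junction with an annotated gene (class j) gave 56.9% and 11.4%, and intergenic RNAs (class u) gave 75.9% and 6.86%. The class o share above 1 thus lay between those of class = and class j, closer to class j.

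The split between higher and lower depended on the scale. Of the 556 class o transcripts past the cutoff as deposited, 80.2% were higher in ‘Ant’. Centring on the median transcript gave 307 above 1 and 154 below -1 (66.6% higher in ‘Ant’), and totals without the A06 window gave 368 and 163 (69.3%). Of the 446 above 1, 188 had at most 6 estimated counts in ‘Mix’, and of the 110 below -1, 41 had at most 6 in ‘Ant’. For such transcripts the ratio is set by the added 1 FPKM, and folds below are given against a floor of 6 counts per library.

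**Figure D2:**
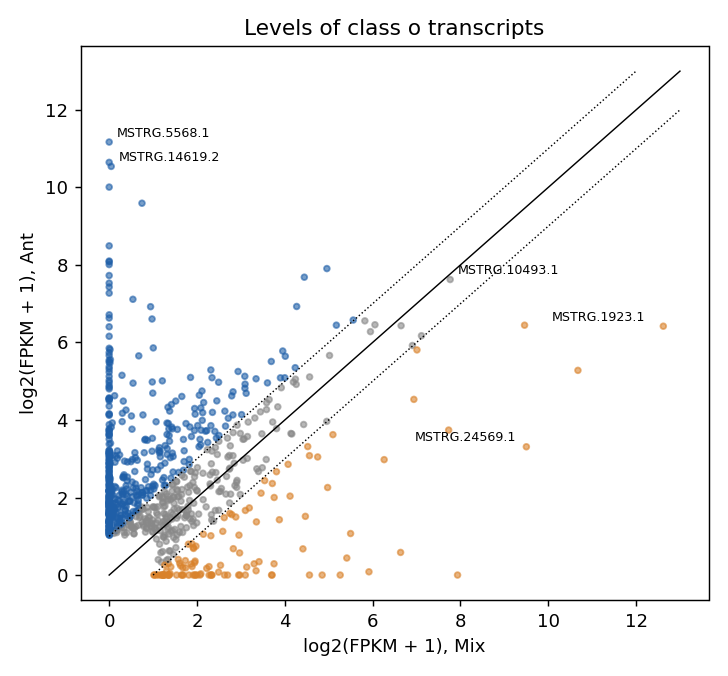
Level of the 806 class o transcripts past the filter, log2(FPKM + 1) in ‘Mix’ (horizontal) against ‘Ant’ (vertical). Blue points are the 446 with a log2 ratio above 1, orange points the 110 below -1 and grey points the rest; the solid line marks equal levels and the dotted lines log2 ratios of 1 and -1.

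The counts of class o transcripts were held by few of them. Together they took 3803855 estimated counts (1.76%) in ‘Ant’ and 2227251 (1.17%) in ‘Mix’. The top 5 held 32.8% of these in ‘Ant’ and 55.8% in ‘Mix’, where MSTRG.1923.1 alone held 27.8%. The 40 transcripts with spans over 10 kb held 7.89% in ‘Ant’ and 36.3% in ‘Mix’.

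The highest ratios toward ‘Ant’ were found both at genes whose partner was itself far higher in ‘Ant’ and at loci with a partner close to 0 or with none. MSTRG.14619.2 (A05, 23147020 to 23148114, minus strand) had the same ends as BraA05g031700.3C, annotated as RNA polymerase II degradation factor 1, and lacked 60 nt. It was at 1490 FPKM in ‘Ant’ and 0.033 in ‘Mix’ (log2 ratio 10.50), and the partner was at 230 and 0.012 FPKM (7.84). A second class o transcript of this gene, MSTRG.14619.1, went 330 nt past the 3′ end and was at 359 FPKM in ‘Ant’ and 0.00012 in ‘Mix’. These 3 RNAs of the gene were thus abundant in ‘Ant’ and under 1 FPKM in ‘Mix’.

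MSTRG.17909.1 (A06, 24707136 to 24708575, plus strand) left out 48 nt in all from BraA06g036840.3C, a gene without a described function. It was at 1029 FPKM in ‘Ant’ and 0 in ‘Mix’, at least 55071-fold higher in ‘Ant’ (30058-fold without the A06 window), and its partner was at 1340 and 0 FPKM. A sister transcript with 4 exons, MSTRG.17909.2, was at 257 FPKM in ‘Ant’ and 0 in ‘Mix’. MSTRG.21901.1 (A08, 7583088 to 7583734, plus strand), which reached 377 nt past the 5′ end of BraA08g008580.3C, was at 771 FPKM in ‘Ant’ and 0.68 in ‘Mix’ (log2 ratio 8.85). Its partner, at 132 and 0.15 FPKM, was also far higher in ‘Ant’. A leucine-rich repeat gene, BraA01g004250.3C, followed the same pattern, with MSTRG.342.1, lacking 84 nt, at 274 FPKM in ‘Ant’ and 0 in ‘Mix’ and the partner at 96.0 and 0.017 FPKM.

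The most abundant class o transcript in ‘Ant’ had a partner close to 0 that its exons cannot touch. MSTRG.5568.1 (A02, 27064168 to 27124114, plus strand) had 2 exons and was 212 nt long over a span of 59947 nt. The gene it was assigned to, BraA02g038990.3C, a receptor-like kinase SD1-8, lay 41355 and 15996 nt inside the ends of the span. MSTRG.5568.1 was at 2304 FPKM in ‘Ant’ and 0 in ‘Mix’, whereas the partner was at 0.064 and 0 FPKM. This was at least 18781-fold higher in ‘Ant’ as deposited and 10250-fold on totals without the A06 window. The second, MSTRG.5592.1 (A02, 27406497 to 27456002, plus strand, 330 nt), was at 1602 FPKM in ‘Ant’ and 0 in ‘Mix’, at least 20319-fold higher (11090-fold without the A06 window), and had no partner. Its span crossed 5 annotated polygalacturonase-like genes of the other strand, and polygalacturonases are pectin-degrading enzymes common in pollen. Of these, 4 were at 807 to 1697 FPKM in ‘Ant’ and the fifth at 14.9 FPKM, with all 5 at 0 in ‘Mix’. The strand setting used in counting is not given in the sources used here, so reads of the 2 strands may not be told apart. At BraA04g005110.3C, which encodes an AAA domain ATPase, 3 class o transcripts were at 83.7 to 211 FPKM in ‘Ant’ and all at 0 in ‘Mix’, while the partner was at 0.68 and 0 FPKM.

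The lowest ratios, toward ‘Mix’, were mostly those of transcripts with partners near 0, and the 2 most abundant lay at a piece of plastid-like sequence. MSTRG.1923.1 (A01, 18531104 to 18609075, minus strand, 426 nt) was at 84.6 FPKM in ‘Ant’ and 6297 in ‘Mix’ (log2 ratio -6.20). Its partner BraA01g028360.3C, a chloroplast phytyltransferase of phylloquinone synthesis, was at 0.70 and 0.95 FPKM, and its span held 4 other genes of its strand. The partner lay 20225 and 55794 nt inside the ends of MSTRG.1923.1, out of reach of its 2 exons. MSTRG.1922.1 (A01, 18531104 to 18531477, plus strand) started at the same base on the other strand and was at 37.9 FPKM in ‘Ant’ and 1635 in ‘Mix’ (-5.40). Its partner BraA01g028300.3C, annotated as part of the Rubisco large subunit of the carbon-fixing enzyme, was at 0.23 and 2325 FPKM. Since the Rubisco large subunit is encoded in the chloroplast genome, reads at this nuclear copy cannot be told apart from reads of the plastid RNA.

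MSTRG.25016.1 and MSTRG.25016.2 (A09, ending at 10838499) were assigned to BraA09g017430.3C, a gene without a described function. Its model lay inside the intron of each of these 2-exon RNAs. The first was at 0 FPKM in ‘Ant’ and 244 in ‘Mix’, at least 2195-fold higher in ‘Mix’. The second was at 86.2 and 704 FPKM, and the partner at 0 and 0.39 FPKM. The 2 isoforms together were thus present in both libraries, with the first listed in ‘Mix’ only. MSTRG.24569.1 (A09, 6079367 to 6125732, plus strand), assigned to a pto-interacting protein 1-like kinase gene, was at 8.91 FPKM in ‘Ant’ and 724 in ‘Mix’. The kinase gene lay 24300 and 20338 nt inside the ends of the span, out of reach of the 2 exons. Both ends of MSTRG.24569.1 lay at genes for peptidyl-prolyl cis-trans isomerases, protein-folding enzymes, of which the one at its 5′ end was at 288 and 119 FPKM.

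A clear case of a short span was MSTRG.21838.1 (A08, 6302459 to 6304385, minus strand) over CYP83B1, a cytochrome P450 of indole glucosinolate synthesis, the defence compounds of the cabbage family. It was 1775 nt long against a partner of 906 nt, reached 1021 nt past the 3′ end and was at 0.50 FPKM in ‘Ant’ and 98.5 in ‘Mix’ (log2 ratio -6.05). The partner was at 0.53 and 0.20 FPKM, so 99.8% of the pair in ‘Mix’ was on the longer model. MSTRG.8996.1, over a gene for a SNAP33-like protein of vesicle fusion, was likewise at 0.060 FPKM in ‘Ant’ and 59.4 in ‘Mix’ (-5.83), with its partner of 276 nt at 0 and 0.038 FPKM.

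**Figure D3:**
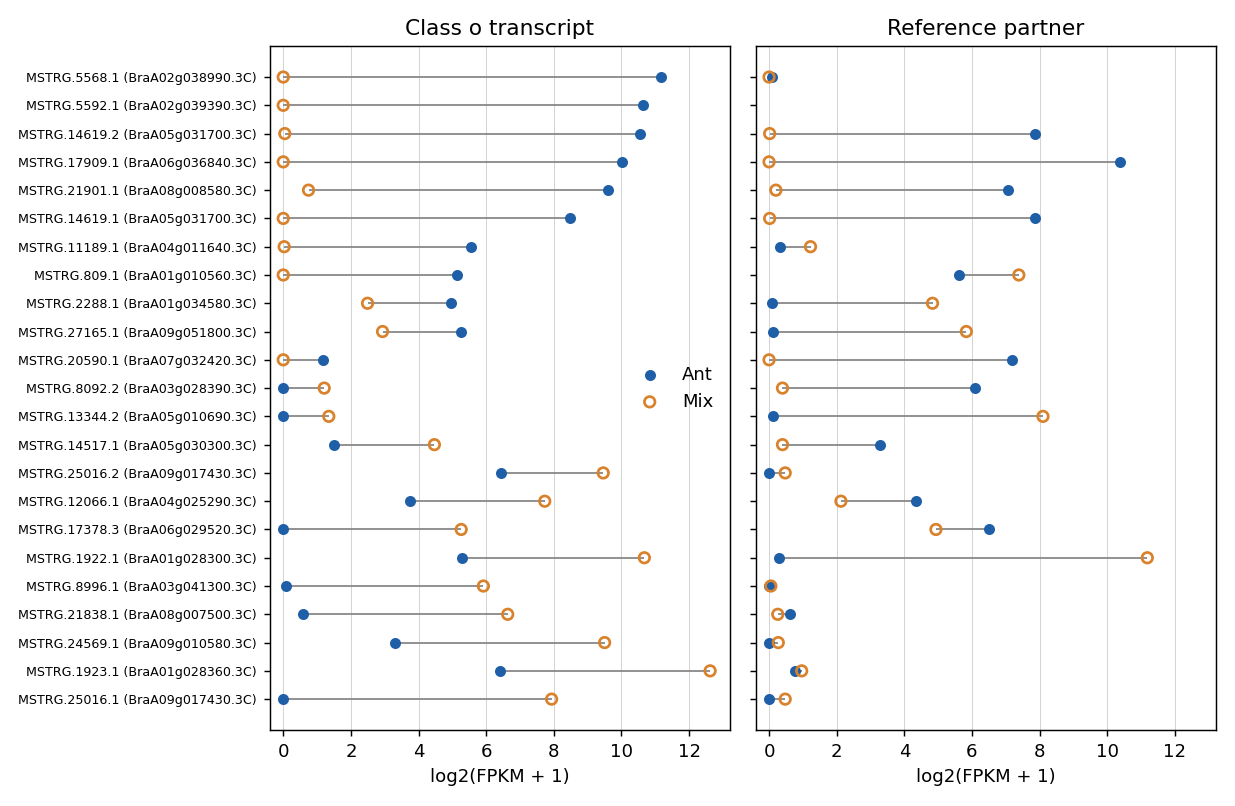
Level of the class o transcripts with the highest and lowest log2 ratios, levels or differences (left) and of their annotated partners (right), as log2(FPKM + 1); filled blue points are ‘Ant’, open orange points ‘Mix’, and a line joins them. MSTRG.5592.1 has no partner, and in several of the lowest rows the partner sits near 0 in both libraries.

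Next, each class o transcript was compared with its partner. Of the 745 paired transcripts past the filter, 405 had a log2 ratio above 1 and 100 below -1, with a median of 1.11, whereas their partners had 202 above 1 (27.1%), 96 below -1 and a median of 0.15. In 290 of the 745 pairs the partner was under the filter, which pulls its ratio toward 0. Both members of the pair passed in 455, from 410 genes, and there the median difference of the log2 ratios, class o minus partner, was 0.21. The difference was above 1 in 137 (30.1%) and below -1 in 86 (18.9%), against 37% and 21.3% of the 4073 class j pairs treated the same way.

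The members of a pair mostly lay on the same side. In 326 of 455 pairs (71.6%) both log2 ratios had the same sign, against 71.4% of class j pairs, and Pearson's r across the pairs was 0.59 (n = 455 pairs), a description only, since the pairs share libraries and reads. Both were above 1 in 158 pairs (34.7%, against 33.6% of class j pairs) and below -1 in 25 (5.49%, against 6.7%). In 32 pairs (7.03%, against 6.48% of class j pairs) the class o transcript was above 1 and the partner below -1, and in 8 (1.76%, against 2.06%) the reverse held. Where the exons of both RNAs of a pair overlap, the assembly program divided the reads of shared exons between them, and how it did so was not tested. Centring left 28 and 10 such opposite pairs, and totals without the A06 window left 32 and 10.

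**Figure D4:**
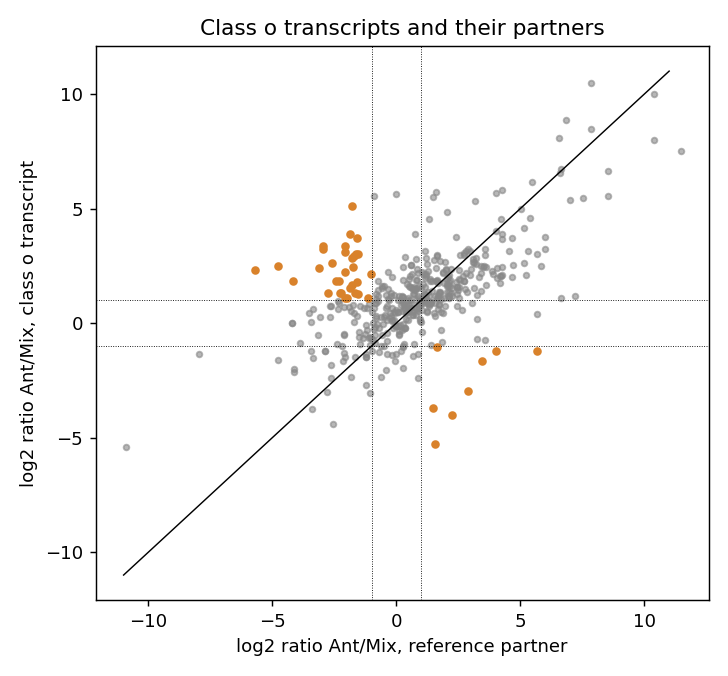
Log2 ratio of ‘Ant’ over ‘Mix’ for the partner (horizontal) and the class o transcript (vertical) in the 455 pairs where both passed the filter. Orange points are the 32 and 8 pairs with opposite ratios past 1 and -1, and the line marks equal ratios.

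Among the 32 pairs in which the extended RNA was higher in ‘Ant’ and the coding model higher in ‘Mix’ were genes for chloroplast proteins. MSTRG.27165.1 (A09, 37990591 to 37992317) reached 1334 nt past the 5′ end of the gene for CP12-2, a small protein that binds enzymes of the Calvin cycle. It was at 37.1 FPKM in ‘Ant’ and 6.65 in ‘Mix’, and the partner at 0.090 and 56.0 FPKM, a difference of 8.02 in log2 ratio. The extension also covered a cytochrome c oxidase subunit 5C-1 model, which was at 0.040 and 51.6 FPKM. The chloroplast dioxygenase CCD4, which cleaves carotenoids, had a 5′-extended RNA, MSTRG.809.1, at 33.9 FPKM in ‘Ant’ and 0 in ‘Mix’, and a partner at 47.7 and 166 FPKM (difference 6.90). A second extended RNA of CCD4, MSTRG.809.2, was at 17.8 and 1.60 FPKM.

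Regulators and a signalling gene showed the same opposition. MSTRG.8013.1, a 5′-extended RNA of SPT16, a subunit of the histone chaperone FACT, was at 44.6 FPKM in ‘Ant’ and 11.9 in ‘Mix’, and the partner at 0.58 and 7.62 FPKM. MSTRG.18716.1, over bZIP transcription factor 2, was at 24.9 and 0.99 FPKM, and its partner at 5.07 and 17.4 FPKM. A pair of RNAs over an IRK-interacting protein-like gene, MSTRG.12947.1 and MSTRG.12947.2, were at 33.2 and 16.5 FPKM in ‘Ant’ and 2.61 and 0.70 in ‘Mix’, with the partner at 0.0057 and 6.88 FPKM. These examples were chosen after their values were seen. MSTRG.11189.1, which extended the 3′ end of an IWS1 gene, a factor of transcript elongation, was at 46.1 FPKM in ‘Ant’ and 0.019 in ‘Mix’. Its partner, at 0.26 and 1.34 FPKM (log2 ratio -0.89), was not past the cutoff, and the difference was 6.42.

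The 8 pairs of the reverse kind were MSTRG.8092.2, MSTRG.12066.1, MSTRG.12278.1, MSTRG.14517.1, MSTRG.16174.1, MSTRG.17378.3, MSTRG.25855.2 and MSTRG.30331.1. MSTRG.14517.1, a 3′-extended RNA of the transcription factor gene bHLH147, was at 1.86 FPKM in ‘Ant’ and 21.1 in ‘Mix’, and the partner at 8.75 and 0.32 FPKM, a difference of -5.84. MSTRG.12278.1, over a gene for a PYL6-like abscisic acid receptor, was at 0 and 11.99 FPKM, and the partner at 2.30 and 0.19 FPKM. MSTRG.12066.1, assigned to the dual specificity phosphatase gene DSP8, was at 12.4 and 212 FPKM, with the partner at 19.4 and 3.36 FPKM. Its span of 52897 nt held 4 other genes of the strand. The DSP8 model lay 40483 and 10939 nt inside the ends, out of reach of the 2 exons of 904 nt in all. This pair thus shares only a gene name. At 3 of the 8 the class o transcript was listed at 0 in ‘Ant’.

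Further large differences did not cross sides. MSTRG.20590.1 lay over a gene for a lipid-transfer protein 2-like, a small secreted lipid-binding protein. It was at 1.27 FPKM in ‘Ant’ and 0 in ‘Mix’ beside a partner at 145 and 0 FPKM, and centring took its ratio from 1.18 to 0.64. Since both were listed at 0 in ‘Mix’, the difference of -6.01 rests on their ‘Ant’ levels and the added 1 FPKM alone. MSTRG.13344.2, over a chlorophyll a-b binding protein gene of the light-harvesting antenna, was at 0 and 1.54 FPKM beside a partner at 0.090 and 273 FPKM. Its span reached 11627 nt past the 3′ end, into a second chlorophyll a-b binding protein gene of the strand. In both pairs, the class o transcript was a minor form beside an abundant tissue-typical partner.

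How much of a pair the class o transcript made up differed between the libraries. In ‘Ant’ it was more abundant per length than its partner in 413 of 745 pairs and less abundant in 319, against 76.4% of class j pairs with the assembled form ahead. In ‘Mix’ the counts were 280 and 395, against 61.8% of class j pairs. In 138 of the 745 pairs it was the more abundant form in ‘Ant’ and the less abundant in ‘Mix’, and in 40 the reverse. Class j pairs leaned the same way, with 1341 and 468 of 9064. Its median share of the summed FPKM of the pair was 67.7% in ‘Ant’ (n = 732 pairs) and 27.8% in ‘Mix’ (n = 675). Class j transcripts had shares of 93.9% and 84.7%. The share was higher in ‘Ant’ in 446 of 662 class o pairs with different shares in both, and in 63.1% of class j pairs. Of these 446, 255 were from class o transcripts that reached 1 FPKM in ‘Ant’ alone, where 37 pairs went the other way. Their median shares were 73.4% in ‘Ant’ and 10.1% in ‘Mix’. The filter used the level of the class o transcript alone, so these passed only through ‘Ant’ and their shares lean that way by selection.

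Many pairs lay at the ends of the scale. In ‘Ant’ 276 of 732 pairs had a share of at least 90% and 22 a share of 0, and in ‘Mix’ 177 and 80 of 675. Shares of at least 90% were more common in class j pairs. There the 44th percentile of the share was already 90.2% in ‘Ant’, and the 55th was 89.9% in ‘Mix’. Where the pair summed to at least 1 FPKM in both libraries (474 pairs), the medians were 47.1% in ‘Ant’ and 26.4% in ‘Mix’. The median in ‘Ant’ was thus lower in this subset, and that in ‘Mix’ was close to the one over all pairs. As shares, these values do not change with the scaling of a library.

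**Figure D5:**
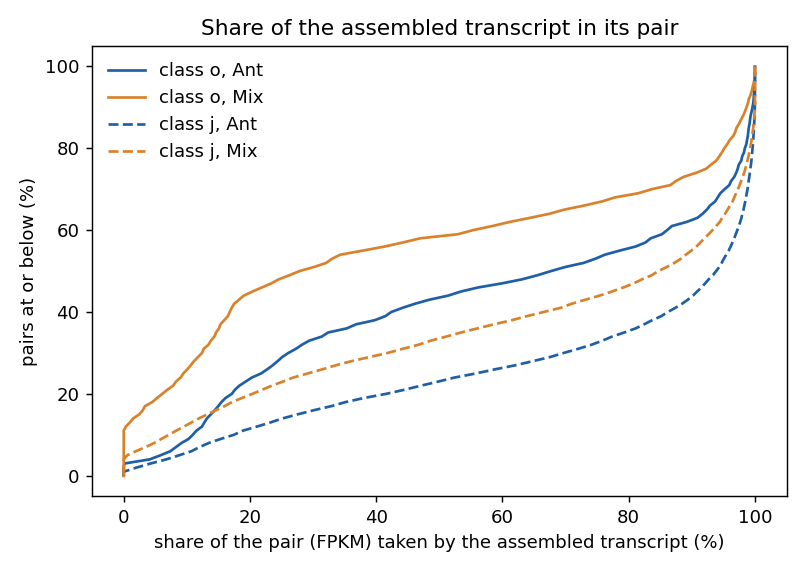
Cumulative share of pairs (vertical, %) against the share of the summed FPKM of the pair taken by the assembled transcript (horizontal, %), for class o (solid) and class j (dashed) in ‘Ant’ (blue) and ‘Mix’ (orange). The class o curve in ‘Mix’ lies to the left, with a median of 27.8% against 67.7% in ‘Ant’.

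The share differed with the position of the ends, whereas the median ratio was close between positions. Class o transcripts reaching past the 5′ end only had median shares of 33.1% in ‘Ant’ and 17.4% in ‘Mix’, those past the 3′ end only 81.2% and 71.8%, and those past both ends 86.6% and 46.5%. Median log2 ratios in these 3 groups were 1.08, 1.10 and 1.11. The median for their partners was 0.39, 0.02 and 0.10. Ratios below -1 were found in 25 of 268 transcripts past the 5′ end only and in 25 of 114 past the 3′ end only.

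The class o transcripts with the ends of the partner mostly had ratios of the same sign as the partner. Of 29 past the filter, 18 were above 1 and 8 below -1, with a median of 1.35 against 1.24 for the partners. In 23 of 24 pairs where both passed, the signs were the same, with r = 0.85, although the difference was above 1 in 5 pairs and below -1 in 7. Their shares were low, at 24.2% in ‘Ant’ and 9.96% in ‘Mix’. The exception in sign was MSTRG.17378.3, over a polyubiquitin gene. In contrast, among the 11 transcripts whose span held 2 or more other genes, 4 were above 1 and 6 below -1 (median -1.44).

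Polyubiquitin genes, which encode head-to-tail repeats of the protein tag ubiquitin, gave 8 class o transcripts at 4 loci and several of the largest differences. On A06, MSTRG.17378.3 was at 0 FPKM in ‘Ant’ and 37.4 in ‘Mix’, beside a partner at 89.5 and 29.6 FPKM (difference -6.83). The other 2 RNAs of this gene, which reached 489 nt past the 5′ end, were at 20.8 and 13.3 FPKM in ‘Ant’ and 11.01 and 5.28 in ‘Mix’. Without the A06 window the log2 ratios were -6.15 for the shortened RNA, 0.04 and 0.43 for the 5′-extended RNAs and 0.71 for the partner (1.57 as deposited), so only the shortened RNA was past the cutoff on both scales.

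On A03, MSTRG.8092.1 carried 409 nt of additional 5′ span and was at 86.8 FPKM in ‘Ant’ and 65.4 in ‘Mix’, and MSTRG.8092.2, with the ends of MSTRG.8092.1, was at 0 and 1.31 FPKM. Their partner was at 66.6 and 0.32 FPKM, so that in ‘Mix’ 99.5% of the pair with MSTRG.8092.1 was on the extended form, against 56.6% in ‘Ant’. On A01, MSTRG.2288.1, of 3749 nt, was at 30.4 and 4.63 FPKM and its partner at 0.054 and 27.5 FPKM (difference 7.24), while the shortened MSTRG.2288.2 was at 0.28 and 2.88 FPKM. On A09, MSTRG.25480.1 was at 55.0 and 128 FPKM with a partner at 164 and 144 FPKM, over a span that also held a polyubiquitin 11 model. The repeats of these genes are close to identical in sequence, so the division of reads between isoforms and between loci is uncertain. The shortened RNAs lacked 456 nt (MSTRG.17378.3) and 228 nt (MSTRG.2288.2, which is among the 22 with shared ends above). Whether these pieces are whole repeats was not tested.

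By function, lists of gene descriptions held class o transcripts in unequal numbers, and their counts are given beside those of annotated genes of the same description. Of 60 in the ubiquitin system, 32 were above 1 and 9 below -1 (median 1.16), against 41.5% and 16.2% of 896 annotated genes. Of 38 for protein kinases, 18 were above 1 and 13 below -1 (median 0.82), against 34.5% and 25.4% of 937. Of 38 for transcription factors, 23 were above 1 and 2 below -1 (median 1.29), against 38.8% and 24.9% of 851. Of 24 for RNA processing, 15 were above 1 and 0 below -1 (median 1.12), against 35.3% and 10.3% of 485. Over all class o transcripts 55.3% were above 1 and 13.6% below -1, against 41% and 21.7% of class = transcripts. A gap between a list and its annotated genes thus also holds the gap between the classes. The counts are descriptions, and no list was tested.

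Among transcription factors, WIN1, an activator of wax and cutin synthesis, had a 5′-extended RNA, MSTRG.16219.2, at 55.4 FPKM in ‘Ant’ and 0.014 in ‘Mix’, with the partner at 19.7 and 0.069 FPKM. NF-YC4, a subunit of the CCAAT-binding complex, had a 3′-extended RNA, MSTRG.17185.1, at 14.6 and 30.04 FPKM (log2 ratio -0.99, and -1.85 without the A06 window), with the partner at 0.16 and 0.23 FPKM. For NF-YC4 the extended model thus made up 98.9% and 99.2% of the pair, and for WIN1 73.7% in ‘Ant’, while its counts in ‘Mix’ were too few for a share. A 5′-extended RNA of the kinase gene CIPK10, which acts with calcium sensors, was at 49.4 and 0.60 FPKM (MSTRG.29166.1), beside a partner at 131 and 3.05 FPKM. A version of pollen receptor-like kinase 3 with the ends of its partner, MSTRG.16919.1, was at 10.4 and 0 FPKM, with the partner at 0.44 and 0 FPKM.

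In RNA processing, a 4-exon RNA of a mitochondrial pentatricopeptide repeat gene, whose family binds organelle RNA, was at 29.9 FPKM in ‘Ant’ and 0.46 in ‘Mix’ (MSTRG.18755.1), with the partner at 0.051 and 0.0091 FPKM. For the splicing factor PRP17 the values were 22.0 and 11.5 FPKM (MSTRG.15951.1), with the partner at 0.58 and 0.41 FPKM. In both genes the partner was at under 1 FPKM in each library. Of 12 class o transcripts for transporters and channels, 6 were above 1 and 1 below -1, against 41.7% and 23.1% of 614 annotated genes. An inositol transporter 4-like gene had MSTRG.1477.1 at 138 and 0.45 FPKM beside a partner at 156 and 0.61 FPKM, so the 2 forms were close in level in each library. An RNA of the malate channel gene ALMT10-like, MSTRG.8182.1, was at 53.9 and 14.5 FPKM, and its log2 ratio of 1.83 was 0.996 without the A06 window.

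The smaller lists went both ways. Of 4 class o transcripts for ribosomal proteins, 0 were above 1 and 2 below -1, against 16.7% and 34.02% of 341 annotated genes. That of the plastid protein L29 (MSTRG.17314.1) was at 1.10 FPKM in ‘Ant’ and 44.2 in ‘Mix’, with the partner at 2.004 and 16.8 FPKM. For the cytosolic protein L3 (MSTRG.25143.1) the values were 59.6 and 119 FPKM, against a partner of 411 nt at 0.68 and 0.81 FPKM. Both of the 2 photosynthesis transcripts were below -1, as were 85.1% of 94 annotated genes. Of 5 for chromatin proteins, 3 were above 1 and 0 below -1, against 38.2% and 18.4% of 152. They included one of the chromatin remodeller CHR4 (MSTRG.25243.2) at 5.56 and 0 FPKM beside a partner at 16.0 and 4.04 FPKM. The RNA of the histone methyltransferase gene SUVH3-like (MSTRG.20347.1) was at 3.40 and 2.51 FPKM. Of 164 over genes described as uncharacterized, 102 were above 1 and 11 below -1, against 42.6% and 18.6% of 3885 annotated genes. One of them was MSTRG.25855.1 at 239 and 30.1 FPKM.

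Several genes gave more than 1 class o transcript: 88 of the 746 genes had 2 or more, and 14 had 3 or more. Of 80 genes with at least 2 past the filter, all of a gene's class o transcripts were above 1 in 39 and below -1 in 7, and 5 genes had them on both sides. Singly, 55.3% of class o transcripts were above 1 and 13.6% below -1, and RNAs of 1 gene can share reads. The CDKG1-like gene BraA06g024570.3C, a cyclin-dependent kinase of a family linked to splicing in Arabidopsis, had the most, at 6. These summed to 45.3 FPKM in ‘Ant’ and 23.3 in ‘Mix’, whereas the coding model was at 0.032 and 0.044 FPKM. The gene for calcineurin B-like protein 2, a calcium sensor, had 3 that summed to 114 and 49.7 FPKM, with the partner at 1.45 and 0.48 FPKM. A gene for a heat stress transcription factor A-4a-like had 5, which summed to 14.2 and 5.42 FPKM against 0.043 and 0.037 FPKM. Of the 12 genes with 3 or more class o transcripts and a partner, these summed to more than the annotated form in both libraries in 6, in ‘Ant’ only in 3, in ‘Mix’ only in 1 and in neither in 2. An example of the last was a gene for translation initiation factor 5-1, at 18.2 and 7.87 FPKM against 45.1 and 25.7 FPKM for the partner.

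Of the 63 class o transcripts without a partner, 61 passed the filter, and 41 of these (67.2%) were above 1 and 10 (16.4%) below -1, with a median of 1.43. For the paired ones the values were 54.4%, 13.4% and 1.11, and the difference was not tested. Among them MSTRG.3782.1 on A02 was at 269 FPKM in ‘Ant’ and 0 in ‘Mix’, at least 14597-fold higher in ‘Ant’ (7967-fold without the A06 window). The 50 class o transcripts under the filter were counted among the 856 and in no ratio.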

How the data were processed

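One library each of ‘Ant’ and ‘Mix’ was analysed. The authors deposited, per assembled linear transcript, an FPKM value and an estimated count in each library, with class code, position, exon number, length and description, on Brassica rapa genome version 3.0. The submitters' processing notes name HISAT2, StringTie and TopHat, and the counting settings are not given in the sources used here. Within each library the deposited estimated count was proportional to FPKM times length, so it was used only as a floor of 6 counts, chosen after the values were seen. A circular RNA table was not used.

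Class o transcripts were paired by gene name with the class = transcript. Ratios used log2(FPKM + 1), an FPKM of at least 1 in either library and a cutoff of 1. With 1 library per group no test was run, and the spread between plants is unknown. Scripts (Python 3.11.15, pandas 2.3.3, numpy 2.4.6) were tested on simulated data. Members, lists and rules were chosen with earlier results of these data known. The named transcripts were the 6 highest and 6 lowest log2 ratios, the 4 highest levels per library, the 5 highest and 5 lowest differences from the partner, and up to 2 per list, each with at least 20 estimated counts in a library; those with shared ends, opposite pairs, several forms or spans over 10 kb were named besides. Alternatives were other pseudocounts, filters, scalings and subsets.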

Additional observations from a re-analysis of the deposited data

How the results depend on the processing

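Of 110 values of the main results under the alternatives, 91 stayed close to those reported, 19 moved and 0 reversed. Counts were called close within a wide range, which held 307 and 368 beside 446 above 1, and 154 and 163 beside 110 below -1. Some values could not move: all 856 transcripts had 2 or more exons and a stated strand, and shares do not respond to pseudocounts or scaling. Requiring 5 FPKM in either library left fewer transcripts: 218 above 1, 54 below -1, a median log2 ratio of 1.83, 200 and 142 more abundant than the partner in ‘Ant’ and ‘Mix’, 78.9% of pairs on the same side of 0, and median shares of 86.5% and 50.3%. Pseudocounts of 0.1 and 0.01 gave median ratios of 1.94 and 2.03 and median differences from the partner of 0.52 and 0.66, and no filter gave a difference of 0.47. Centring gave a median ratio of 0.61, and totals without the A06 window 0.81. Partners with 1 exon left 72 below -1 and shares of 54.8% and 21.9%. Pairs with a summed FPKM of at least 1 in both libraries, a subset chosen after seeing the data, gave a share of 47.1% in ‘Ant’. Taking 1 transcript per gene, spans of at most 10 kb or spans with no other gene of the strand, the last 2 also chosen after seeing the data, moved none of these. The alternative of transcripts with 1 exon gave no value, since there were none. No paired analysis was possible because each group had 1 library. Depth was similar in the libraries, but 56.2% of ‘Mix’ counts lay in the A06 window, so low transcripts were read less deeply there, and a value of 0 in ‘Mix’ says only that the transcript was listed at 0.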
